A study of Mus musculus with 29 samples.

Results

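Interferon-stimulated genes are switched on when a cell receives an interferon signal, and 9 of them were followed here in liver and hindlimb muscle of calorie-restricted mice. They were Rsad2, Ifit1, Ifit2, Ifit3, Oasl2, Isg15, Usp18, Irf7 and Ifi44, taken by gene symbol. Each symbol matched 1 Ensembl gene among the 38124 genes counted, and all 9 passed the filter on low counts in both tissues. The RNA came from 16 male C57BL/6 mice bought at 14 weeks of age and kept on chow until the diets began at 4 months. Mice on the restricted diets, labelled soy, fish and lard, received 60% of the calories eaten ad libitum (8.6 kcal per day). Control mice received 95% (13.6 kcal per day), so the control group was itself held slightly below free feeding. The labels do not name the fat of the control diet. The soy, fish and lard groups each had 4 livers, against 3 control livers. In muscle there were 3 soy, 3 fish and 4 lard libraries, against 4 control libraries. Each library came from 1 mouse, and 13 mice gave both tissues.

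Interferons of type I bind a receptor made of Ifnar1 and Ifnar2, whose kinases pass the signal on to the nucleus. There a complex that holds Irf9 binds interferon-stimulated response elements in promoters. Healthy tissue keeps such genes at a low level through weak continuous signalling, and infection raises them steeply. Irf7 is the transcription factor that amplifies interferon production. Rsad2 (viperin), the Ifit proteins and Oasl2 act against viral RNA or its copying. Isg15 is a ubiquitin-like protein that is attached to other proteins, and Usp18 removes it and also restrains the interferon receptor. Ifi44 is induced by interferon in many cell types.

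The response element is visible in the promoters of the members below, which are shown because they hold the motif GAAANNGAAA on either strand within 250 bases upstream of the RefSeq start. Capitals mark the matches, written as the reverse complement of the motif where it lies on the opposite strand, and each stretch is written 5′ to 3′ on the strand of its gene. The 4 stretches are from RefSeq on GRCm38.p6. That of Rsad2 is chr12:26456539-26456596 (minus strand), that of Ifit1 is chr19:34640761-34640837 (plus strand), that of Ifit3 is chr19:34583349-34583440 (plus strand) and that of Isg15 is chr4:156200851-156200920 (minus strand).
Rsad2: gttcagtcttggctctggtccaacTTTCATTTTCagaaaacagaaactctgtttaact
Ifit1: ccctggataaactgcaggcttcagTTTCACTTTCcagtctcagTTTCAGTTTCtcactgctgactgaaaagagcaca
Ifit3: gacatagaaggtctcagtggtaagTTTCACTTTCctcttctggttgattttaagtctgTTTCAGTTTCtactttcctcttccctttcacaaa
Isg15: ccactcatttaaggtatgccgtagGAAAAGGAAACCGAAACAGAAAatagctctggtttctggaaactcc
Rsad2 held 1 match, Ifit1 and Ifit3 held 2 each, and Isg15 held 3 that overlap one another. The motif was found in 4 of the 8 members with a promoter sequence, and in 2.98% of all 32851 promoters searched over the same length. Ifit2, Oasl2, Irf7 and Ifi44 had no match in this window, which says only that these letters are not there.

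The members lie on 7 chromosomes of GRCm38. Ifit2, Ifit3 and Ifit1 lie in the same cluster on chromosome 19 between 34550694 and 34650009. Rsad2 spans 26442753 to 26456452 on chromosome 12, and its nearest neighbour in the tables on the upstream side is Cmpk2, a nucleotide kinase also induced by interferon, 12751 bases away. Isg15 lies on chromosome 4 (156199424 to 156200818), Irf7 on chromosome 7 (141262706 to 141266481) and Usp18 on chromosome 6 (121245906 to 121270916). Oasl2 lies on chromosome 5 (114896936 to 114912234) and Ifi44 on chromosome 3 (151730922 to 151749947). Of the Ifit3 reads only 69.2% in liver and 66.0% in muscle were unique, and Ifit3b is a close paralog, so its level is uncertain. Exons of Irf7 overlap Phrf1 and those of Usp18 overlap Gm44148, both on the opposite strand. The counting is not stated to use strand, and reads of these pairs cannot be told apart.

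All levels below are CPM, exon reads of a gene per 1000000 exon reads of its library, unless RPKM is named. The 29 libraries held 11315231 to 27106865 exon reads, with a median of 15316165, and the members were counted at 6 to 1690 reads per library. Hepatocyte markers summed to 103287 to 165766 CPM in livers and 232.5 to 718 CPM in muscles, and skeletal muscle markers to 112198 to 225376 CPM in muscles. Fish liver 1123 held the highest muscle marker sum of the livers, 2815 CPM, against 142.4 to 302.9 CPM in the other livers, and leaving it out changed no count of members past the threshold. A pair of libraries also stood apart in each tissue. The soy livers of mice 1073 and 1159 had 5.47% and 5.41% of gene reads outside exons, against 7.90% to 8.92% in the other 13 livers. The control muscles of mice 1071 and 1120 had 297.1 and 1249 CPM of 12 neutrophil markers, against 1.20 to 3.02 CPM in the 10 restricted muscles and 1.66 and 1.94 CPM in the other control muscles. Erythroid markers in the same pair summed to 1990.4 and 7685 CPM, against 224.6 to 1082 CPM in restricted muscles and 219.1 and 556.4 CPM in the other control muscles.

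Restriction lowered Rsad2 in liver, and none of the other 8 members passed the test there. Rsad2 encodes viperin, an enzyme that makes a nucleotide analogue which ends viral RNA chains. It had 4.58, 3.33, 2.69 and 2.24 CPM in soy livers, 4.33, 4.79, 5.68 and 5.73 CPM in fish livers, 3.95, 3.66, 4.81 and 4.86 CPM in lard livers, and 11.0, 7.62 and 6.28 CPM in control livers. All 12 restricted livers were below all 3 control livers, with soy livers reaching lowest. Rsad2 fell by 0.92 ± 0.18 on the log2 scale in the mean of the 3 restricted diets against control (SE, n = 12 and 3), with an adjusted p of 0.0207 by edgeR's quasi-likelihood test. This was 1 of 9 members called, and called lower, where 1.08% of the 12788 genes tested were called and 0.766% were lower. It was also the only member whose restricted livers all lay below the control livers, which 1.88% of genes did. The call was lost without control liver 1095 (adjusted p = 0.142) or control liver 1120 (adjusted p = 0.104), and with the library number as a replicate block (adjusted p = 0.0587).

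Diet by diet, Rsad2 fell by 1.20 ± 0.23 in soy livers against control livers (adjusted p = 0.0184, n = 4 and 3). Its log2 fold change was -0.84 ± 0.22 in lard livers (adjusted p = 0.121) and -0.71 ± 0.22 in fish livers (adjusted p = 0.298), each against control. The 3 comparisons share the 3 control livers. The soy comparison called 1 of 9 members, against 1.17% of all genes called and 0.766% called lower. The fish and lard comparisons called 0 of 9 by edgeR, where 0.383% and 0.508% of all genes were called. At an unadjusted p under 0.05 there were 4, 2 and 1 members in the soy, fish and lard comparisons, and the DESeq2 Wald test called 2, 0 and 1. The shares of all genes at these cuts are not given here, so these counts are not read as an excess. The second soy member by DESeq2 was Oasl2, and the lard member was Rsad2. In soy livers the edgeR call of Rsad2 was lost without soy liver 1159 (adjusted p = 0.0520), control liver 1095 (0.0708) or control liver 1120 (0.0722). It was also lost without both soy livers that stood apart, where the log2 fold change was -1.09 (adjusted p = 0.102), and in a fit of soy and control livers alone, at -1.21 (adjusted p = 0.166).

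Ifit1, Ifit2 and Oasl2 had negative log2 fold changes against control in all 3 diets, furthest from 0 in soy livers, and did not pass. Ifit1, which binds viral RNA that lacks the host's cap methylation, had 4.10, 5.43, 2.24 and 2.24 CPM in soy livers, 4.26, 4.79, 3.07 and 5.32 CPM in fish livers, 5.12, 2.35, 5.01 and 6.45 CPM in lard livers, and 7.94, 9.27 and 5.32 CPM in control livers. Fish livers all lay below the control livers by a narrow margin, and the soy and lard ranges overlapped those of control. Its log2 fold change was -0.93 ± 0.35 in soy (adjusted p = 0.153), -0.82 ± 0.35 in fish (adjusted p = 0.503) and -0.57 ± 0.35 in lard livers (adjusted p = 0.679), each against control.

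Ifit2 had 3.15, 2.80, 2.16 and 2.43 CPM in soy livers and 4.90, 4.61, 3.0 and 5.05 CPM in fish livers. It had 4.51, 2.70, 3.57 and 5.66 CPM in lard livers and 5.03, 7.0 and 3.91 CPM in control livers. Every soy liver was below every control liver, and the fish and lard livers spread across both. Its log2 fold change against control was -0.86 ± 0.28 in soy livers (adjusted p = 0.111), with -0.31 ± 0.27 in fish and -0.29 ± 0.27 in lard livers (adjusted p = 0.870 and 0.866).

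Oasl2, a relative of the oligoadenylate synthetases that sense viral RNA, had 3.72, 4.30, 2.09 and 2.37 CPM in soy livers, 5.53, 6.29, 4.31 and 4.90 CPM in fish livers, 5.45, 4.22, 4.26 and 5.21 CPM in lard livers, and 6.45, 5.56 and 5.51 CPM in control livers. Soy livers and lard livers all lay below the control livers, the lard livers only just. Its log2 fold change against control was -0.73 ± 0.23 in soy livers (adjusted p = 0.103), with -0.19 ± 0.23 in both fish and lard livers (adjusted p = 0.938 and 0.921). By the DESeq2 Wald test Oasl2 passed in soy livers (adjusted p = 0.0461).

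Separation of the groups was common among all genes in these comparisons. Soy livers lay wholly below control livers for 3 members, Rsad2, Ifit2 and Oasl2, and for 11.3% of all genes tested. Fish livers did so for Rsad2 and Ifit1, and for 5.19% of genes. Lard livers did so for Rsad2 and Oasl2, and for 12.7% of genes. No member was wholly above the control livers in any of the 3 diets. Of all genes tested, 2.78% were so in soy, 7.17% in fish and 3.32% in lard livers.

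**Figure D1:**
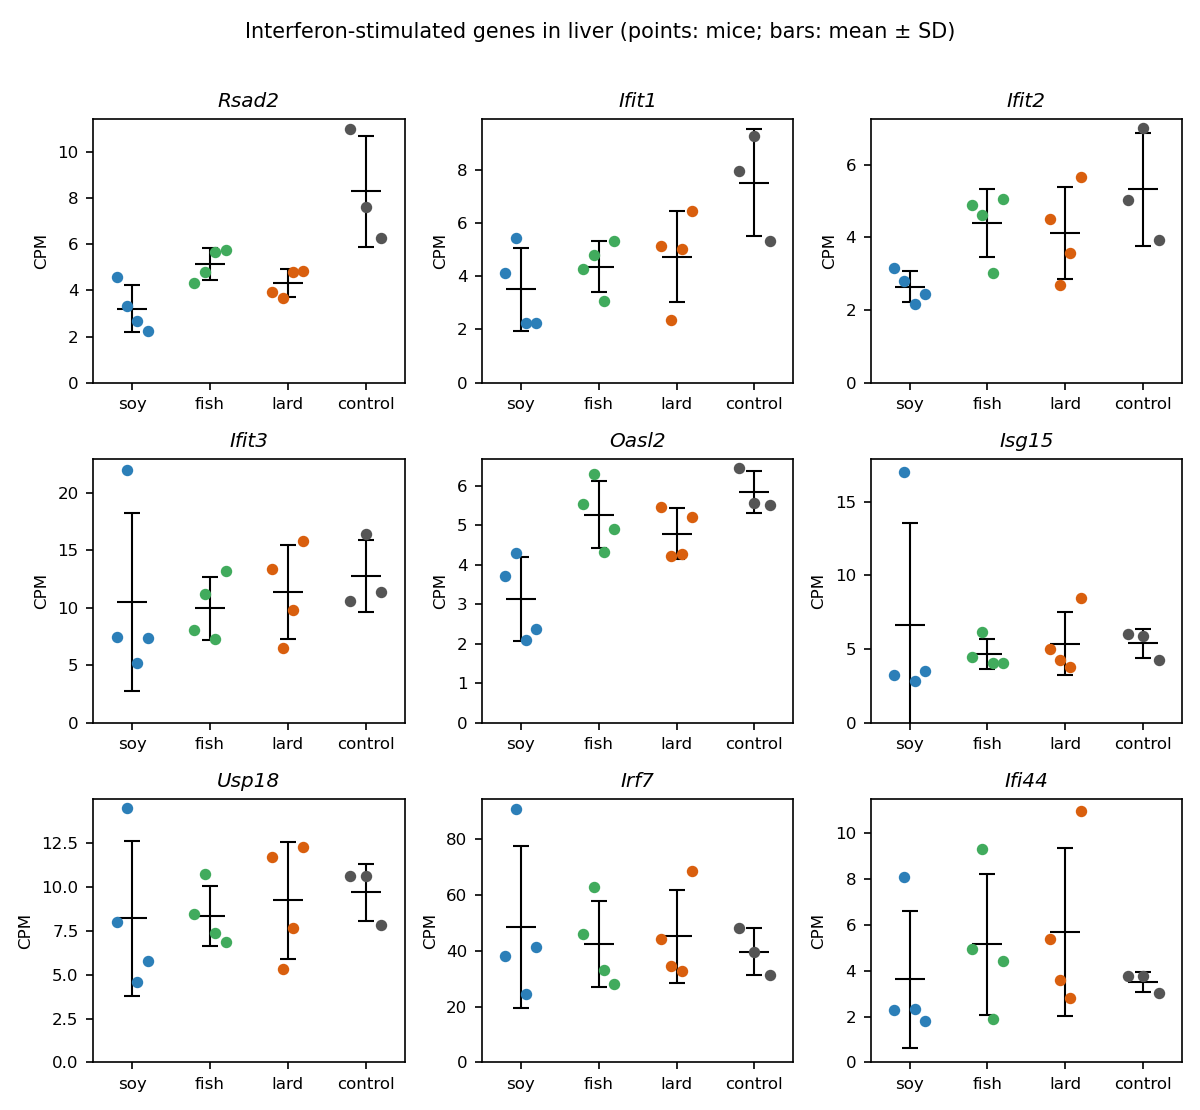
CPM of the 9 genes in each liver (vertical axis, from 0) by diet (horizontal axis); points are mice, and bars give the mean ± SD of 4 soy, 4 fish, 4 lard and 3 control livers (the lower bar of Isg15 in soy is cut at 0). Rsad2 in all 12 restricted livers (2.24 to 5.73 CPM) sits below the control livers (6.28 to 11.0 CPM), and soy liver 1073 stands high for Isg15 (17.0 CPM), Ifit3 (22.0 CPM) and Irf7 (90.8 CPM).

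The other 5 members did not separate the diets in liver, and soy liver 1073 was the highest liver for 4 of them. Isg15 had 3.20, 17.0, 2.84 and 3.49 CPM in soy livers, 4.45, 6.17, 4.05 and 4.01 CPM in fish livers, 4.98, 4.22, 3.78 and 8.48 CPM in lard livers, and 6.02, 5.90 and 4.23 CPM in control livers. Without the high value of mouse 1073, the soy livers are the lowest of the 4 diets for Isg15. Its log2 fold change in restricted against control livers was 0.11 ± 0.46 (adjusted p = 0.958), and -0.31 without the 2 soy livers that stood apart (adjusted p = 0.513).

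Ifit3 had 7.44, 22.0, 5.15 and 7.35 CPM in soy livers and 8.08, 11.2, 7.31 and 13.2 CPM in fish livers. It had 13.4, 6.50, 9.82 and 15.8 CPM in lard livers and 10.6, 16.4 and 11.3 CPM in control livers. Usp18 had 7.97, 14.5, 4.55 and 5.79 CPM in soy livers, 6.88 to 10.7 CPM in fish livers, 5.32 to 12.3 CPM in lard livers, and 10.6, 10.6 and 7.82 CPM in control livers. The log2 fold change of Ifit3 against control was negative in all 3 diets, at -0.11 ± 0.44 in soy, -0.40 ± 0.44 in fish and -0.08 ± 0.45 in lard livers. In both genes soy liver 1073 was the highest of all livers and soy liver 1141 the lowest. In restricted against control livers the log2 fold change was -0.20 ± 0.37 for Ifit3 (adjusted p = 0.889) and -0.10 ± 0.30 for Usp18 (adjusted p = 0.936).

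Irf7 and Ifi44 had positive fold changes in all 3 diets, with wide errors. Irf7 had 38.0, 90.8, 24.6 and 41.2 CPM in soy livers, 46.0, 62.7, 33.1 and 28.0 CPM in fish livers, 44.4, 34.6, 32.9 and 68.8 CPM in lard livers, and 48.2, 39.5 and 31.2 CPM in control livers. Ifi44 had 1.81 to 8.06 CPM in soy livers, 1.89 to 9.29 CPM in fish livers, 2.82 to 11.0 CPM in lard livers, and 3.01 to 3.78 CPM in control livers. Within each restricted diet the highest Ifi44 liver held 3.89 to 4.91 times the lowest, against 1.25 times among control livers. In restricted against control livers the log2 fold change was 0.27 ± 0.34 for Irf7 (adjusted p = 0.808) and 0.50 ± 0.51 for Ifi44 (adjusted p = 0.757).

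Over the 9 genes, the median log2 fold change in liver against control was -0.11 in soy, -0.26 in fish, -0.08 in lard and -0.20 in the mean of the restricted diets. The medians over all genes tested were 0.00, 0.01, 0.00 and 0.01. The soy median was -0.91 without the 2 soy livers that stood apart, and all 9 values were then negative. Only soy livers 1065 and 1141 were left in that fit, and both were below the liver mean for all 9 genes. The value therefore depends on which libraries were left out. Hepatocyte markers, 8 genes, summed to 123385 to 165766 CPM in restricted livers and 103287 to 119991 CPM in control livers, so these sums did not overlap. Macrophage markers, 15 genes all detected, summed to 491 to 1376 CPM in restricted livers and 657 to 766 CPM in control livers. The 8 plasmacytoid dendritic cell markers summed to 100.6 to 316.4 CPM in restricted livers and 119.4 to 149.5 CPM in control livers. They summed to 501.4 to 1512 CPM in muscles, and they include Bst2, which is also in the interferon lists. The sum is therefore not wholly independent of the interferon genes. Bst2 itself held only 4.38 to 15.3 CPM in muscles, so other genes of the list make up most of the muscle sum. It is not read as an amount of these cells. Of these 8, 5 were tested, with a median log2 fold change of -0.75 in restricted against control livers and none past the threshold. In bulk tissue, fewer cells of a type and less RNA per cell cannot be told apart, and the part of these cells in the result was not tested.

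Fat source under restriction did not separate the members by the test. Fish against soy, fish against lard and lard against soy livers each called 0 of 9 by edgeR and by DESeq2, where 0.0938%, 0.203% and 0% of all genes were called by edgeR. At an unadjusted p under 0.05 there were 2, 0 and 2 members. In fish against soy livers the members ran from -0.75 ± 0.50 for Isg15 (adjusted p = 0.360), where soy liver 1073 was high, to 0.54 ± 0.26 for Ifit2 (adjusted p = 0.223). Oasl2 had a log2 fold change of 0.54 ± 0.21 in fish against soy livers (adjusted p = 0.161) and of 0.54 ± 0.22 in lard against soy livers (adjusted p = 0.249). Intervals of 2 SE around these values ran from 0.11 to 0.97 and from 0.11 to 0.98. Such intervals are not adjusted for the number of genes tested. Rsad2 was at 0.49 ± 0.21 in fish against soy livers (adjusted p = 0.195), with an interval of 0.06 to 0.91. Without soy liver 1065 it passed, at 0.68 (adjusted p = 0.0467). In fish against lard livers Rsad2 was at 0.12 ± 0.21 (interval -0.30 to 0.55) and Oasl2 at -0.0032 ± 0.21 (interval -0.43 to 0.42).

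**Figure D2:**
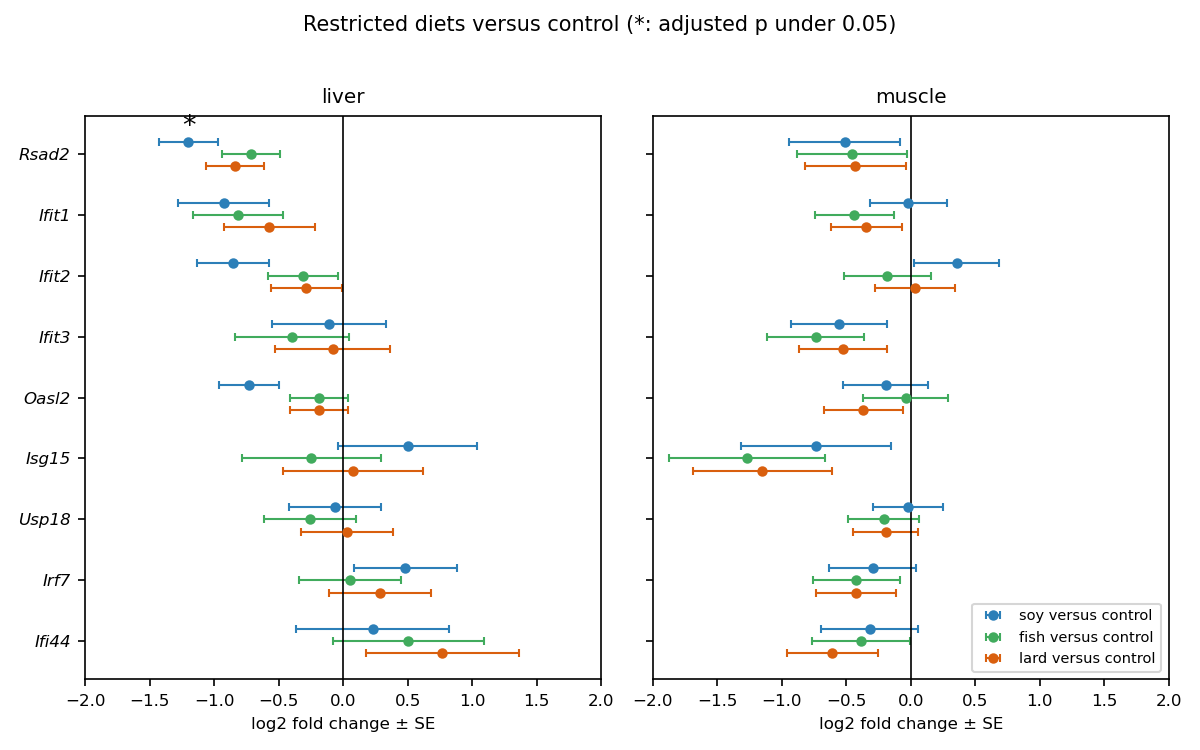
Log2 fold change (horizontal axis) of the 9 genes in the soy, fish and lard diets against control, in liver (left) and muscle (right); points are edgeR estimates and bars 1 SE, and an asterisk marks an adjusted p under 0.05. Only Rsad2 in soy livers (-1.20) carries an asterisk; Rsad2, Ifit1, Ifit2, Ifit3 and Oasl2 lie left of 0 for all 3 diets in liver, Ifit3 by less than 1 SE.

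In muscle no member passed, and the direction of most rested on a pair of control libraries. Restricted against control muscle called 0 of 9 members by edgeR and by DESeq2, with 2 at an unadjusted p under 0.05, where 3.49% of the 13104 genes tested were called and 2.33% were lower. No member lay wholly below the control muscles, which 0.488% of genes did. Isg15 had the largest difference, with 0.876, 1.68 and 1.49 CPM in soy muscles, 1.53, 0.612 and 0.556 CPM in fish muscles, 1.25, 0.551, 0.541 and 1.43 CPM in lard muscles, and 2.15, 0.604, 4.81 and 1.25 CPM in control muscles. The high control values were those of mice 1071 and 1120, and the other 2 control muscles lay within the restricted range. The log2 fold change was -1.05 ± 0.43 (adjusted p = 0.148, n = 10 and 4). It was 0.18 without the control muscles of mice 1071 and 1120 (adjusted p = 0.938), and it passed without control muscle 1095, at -1.34 (adjusted p = 0.0440).

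Ifit3 had 2.94, 7.74 and 3.12 CPM in soy muscles, 5.34, 3.67 and 2.70 CPM in fish muscles, 5.31, 3.18, 3.30 and 5.39 CPM in lard muscles, and 7.54, 3.89, 9.97 and 4.30 CPM in control muscles. Rsad2 had 2.00, 6.73 and 2.23 CPM in soy muscles, 4.17, 3.74 and 3.02 CPM in fish muscles, 4.83, 1.71, 2.88 and 4.67 CPM in lard muscles, and 3.90, 3.49, 8.98 and 3.47 CPM in control muscles. Control muscle 1120 was the highest of all muscles in both genes, and soy muscle 1073 came second. In restricted against control muscle the log2 fold change was -0.61 ± 0.28 for Ifit3 (adjusted p = 0.186) and -0.47 ± 0.32 for Rsad2 (adjusted p = 0.361). Without the control muscles of mice 1071 and 1120 these values were 0.03 and 0.02.

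The remaining members had smaller differences in muscle. Irf7 was at 2.75 to 7.54 CPM in soy, 3.10 to 5.34 CPM in fish, 3.36 to 4.28 CPM in lard and 3.33 to 8.56 CPM in control muscles, with a log2 fold change of -0.38 ± 0.26 in restricted against control muscle. Ifit2 was the only member above 0, at 0.07 ± 0.26, where soy muscle 1073 held the highest value of 9.62 CPM. Ifit1, Usp18, Oasl2 and Ifi44 were at -0.27 ± 0.23, -0.14 ± 0.21, -0.20 ± 0.25 and -0.44 ± 0.29. Ifi44 was at the edge of detection, at 6 to 17 reads per muscle. The members' median was -0.38 in restricted against control muscle, beside -0.02 over all genes tested. It was 0.01 without the control muscles of mice 1071 and 1120, with 5 members positive and 4 negative. Neutrophil and erythroid markers, given above, were high in the same pair of libraries. B cell markers summed to 31.3 to 122.3 CPM in the 10 restricted muscles and 128.1 to 331 CPM in the 4 control muscles, without overlap. Macrophage markers summed to 72.2 to 313 CPM in restricted and 209 to 457 CPM in control muscles, and T and NK cell markers to 0.204 to 1.95 CPM and 0.901 to 5.02 CPM. The part of these cells in the result was not tested.

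The single diets and the fat sources called 0 of 9 members in muscle as well, by edgeR and by DESeq2, with 0 members at an unadjusted p under 0.05. Soy and lard against control called 0% of all genes, fish against control called 0.00763%, and the 3 comparisons of fat source called 0%. The members' medians against control were -0.29 in soy, -0.42 in fish and -0.43 in lard muscles, where they share the 4 control muscles.

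**Figure D3:**
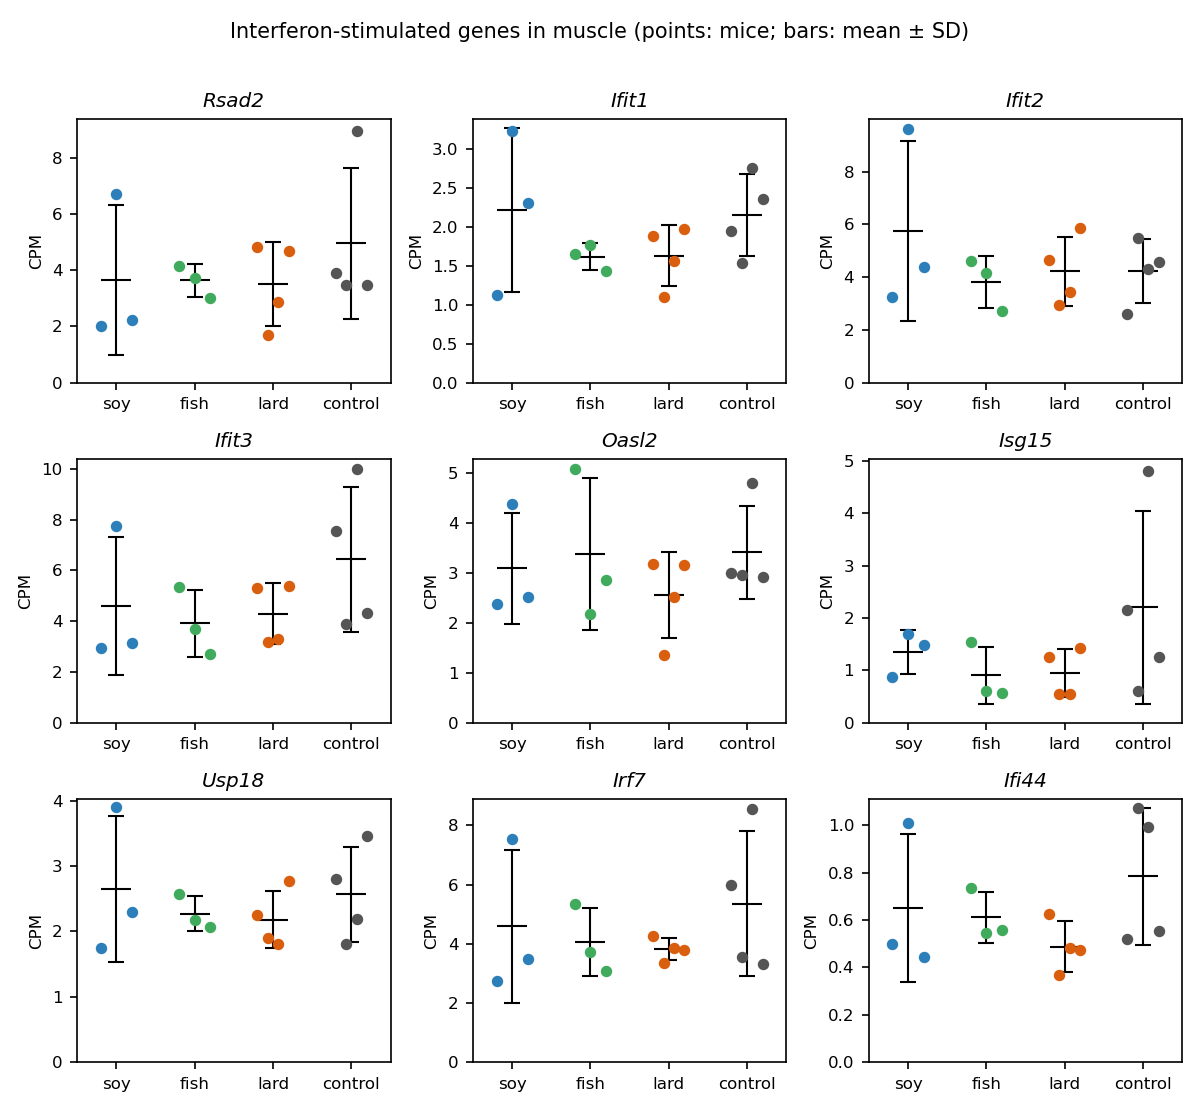
CPM of the 9 genes in each hindlimb muscle (vertical axis, from 0) by diet (horizontal axis); points are mice, and bars give the mean ± SD of 3 soy, 3 fish, 4 lard and 4 control muscles. Control muscle 1120 is the highest for Rsad2 (8.98 CPM), Ifit3 (9.97 CPM), Irf7 (8.56 CPM) and Isg15 (4.81 CPM).

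The effect of restriction was not shown to differ between the tissues for any member. The test of the difference, restricted against control in liver minus the same in muscle, called 0 of 9 members by edgeR, where 0.657% of 14150 genes were called, with 0 members at an unadjusted p under 0.05. DESeq2 was not run on this test. The smallest adjusted p was that of Isg15, at 1.14 ± 0.67 (adjusted p = 0.354), and it was -0.49 without the 4 libraries that stood apart. Rsad2 was at -0.46 ± 0.39 (adjusted p = 0.513), with an interval of -1.25 to 0.32. With the animal as a block, which pairs the tissues of a mouse, 0 members passed, and over all genes 6 were higher and 10 lower, against 55 and 38 without it.

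The tissues themselves differed in the order of the genes by RPKM, the deposited measure that allows for gene length. In liver Irf7 was the highest member in 15 of 15 libraries, with a median of 15.0 RPKM. Ifit3 (5.56), Isg15 (5.12) and Usp18 (4.14 RPKM) followed, and Ifit1, Oasl2, Ifi44, Rsad2 and Ifit2 had medians of 1.73, 1.38, 1.21, 1.04 and 0.910 RPKM. The ranges of neighbours in this order overlapped. In muscle Ifit3 came first in 12 of 14 libraries, with a median of 2.20 RPKM, ahead of Isg15 (1.55), Irf7 (1.47), Usp18 (1.19), Ifit2 (1.05), Oasl2 (0.854), Rsad2 (0.807) and Ifit1 (0.645 RPKM). Only 66.0% of Ifit3 reads in muscle and 69.2% in liver were unique, against 100% for Isg15, Irf7 and Usp18. The place of Ifit3 in both orders is therefore uncertain. Unique reads do not separate Irf7 from Phrf1 or Usp18 from Gm44148, whose exons overlap on the opposite strand, so these levels carry that limit. Ifi44 was the lowest in 14 of 14 muscles, with a median of 0.180 RPKM. Its range there, 0.121 to 0.353 RPKM, lay below that of its neighbour Ifit1 (0.391 to 1.13 RPKM), and the other neighbours overlapped.

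Irf7, Ifi44 and Usp18 were higher in every liver than in every muscle. Their mean RPKM in liver was 9.71, 7.04 and 3.59 times that in muscle. Irf7 ranged from 9.30 to 35.5 RPKM in livers and from 1.07 to 3.38 RPKM in muscles. Rsad2 and Ifit2 were nearly level between the tissues, at 1.23 and 0.884 times, and their ranges overlapped. Reads of Irf7 and Usp18 cannot be told apart from those of the genes that overlap them on the opposite strand. These values are descriptions of levels, and no test was run between tissues. The share of all genes that separate liver from muscle in this way is not given here. The separation is therefore not read as a trait of these members.

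The members moved together from mouse to mouse, also within diets. Of the 36 pairs of members, 35 had a positive Pearson correlation of log2 CPM across the 15 livers, with a median of 0.67, and 36 had one across the 14 muscles, with a median of 0.65. After each diet's mean was removed the medians were 0.70 in liver and 0.68 in muscle. The exception in liver was Rsad2 with Irf7, at -0.01. In liver Rsad2 followed Ifit1 (0.76), Oasl2 (0.76) and Ifit2 (0.71) across all libraries, with Usp18 at 0.40, Ifit3 at 0.34, Isg15 at 0.14 and Ifi44 at 0.12. Within diets the order differed, with Ifit1 at 0.57, Oasl2 at 0.45, Usp18 at 0.37 and Ifit2 at 0.32. In muscle its correlation across libraries with the other 8 ran from 0.51 with Usp18 to 0.88 with Ifit3. The libraries of a pair share depth and composition, and these values are descriptions.

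The mean of the 9 genes, as log2 CPM minus each gene's mean in its tissue, placed the same mice high or low in both tissues. Soy mouse 1073 was at 0.56 in liver and 0.76 in muscle, and control mouse 1120 at 0.44 and 0.80. Lard mouse 1101 was at -0.41 in liver and -0.65 in muscle, fish mouse 1124 at -0.33 and -0.39, and soy mouse 1065 at -0.30 and -0.47. Of the 13 mice with both tissues, 11 were on the same side of the mean in both. The exceptions were fish mouse 1123 and control mouse 1095, both above the mean in liver and below it in muscle.

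Across the 13 mice the Pearson correlation between liver and muscle was 0.65 and Spearman's rho 0.75. Without mice 1073 and 1120, the farthest from the median in muscle, they were 0.54 and 0.65. After removal of each diet's mean Pearson's r was 0.70. Of the single genes Ifit3 had the highest correlation, at 0.81, and 0.76 without mouse 1073. Ifit2 had the lowest, at 0.20, and was at 0.61 without mouse 1073. These are descriptions, and the tissues of a mouse share the animal and also the library number. The part of the library number in these correlations was not tested.

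**Figure D4:**
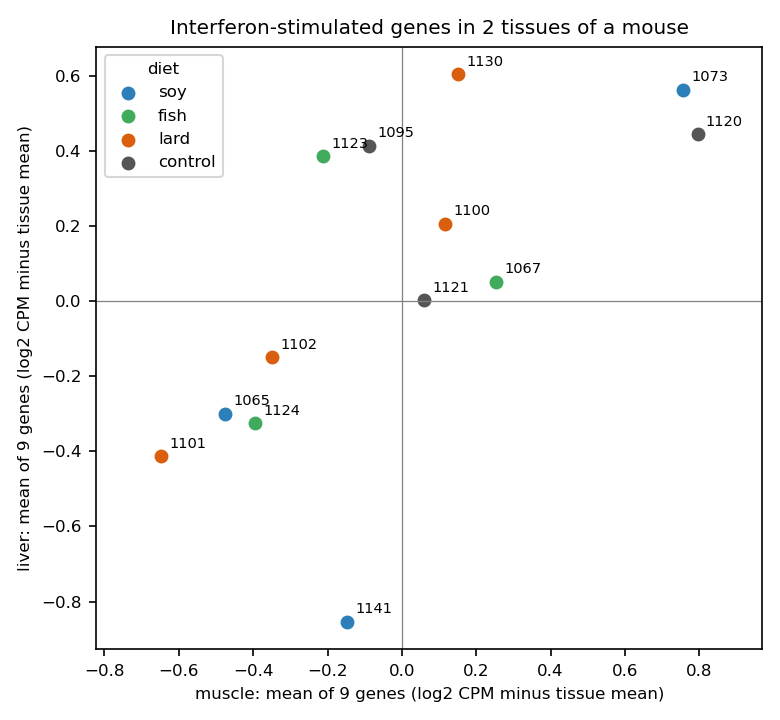
Mean of the 9 genes in liver (vertical axis) against muscle (horizontal axis), both as log2 CPM minus the gene's mean over the tissue's libraries; each point is 1 of 13 mice, labelled by number and coloured by diet. Mice 1073 and 1120 lie at the upper right and mice 1101, 1065 and 1124 at the lower left; soy mouse 1141 is lowest in liver, at -0.85.

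Of the 5 genes whose pattern across libraries was most like the members' mean, 3 were in the interferon lists in liver and 2 in muscle. How many list genes were among all genes ranked is not given here, and these counts are not read as an excess. Among 11760 genes at 1 CPM or more on average, the highest Pearson correlations over 15 livers were those of Herc6 (0.91), Dhx58 (0.90), Sirt5 (0.90), Uba7 (0.90) and Iyd (0.87). Herc6 is the main ligase that attaches Isg15 in mice, Uba7 activates Isg15 for attachment, and Dhx58 is a sensor of the RIG-I family. Sirt5 is a mitochondrial desuccinylase and Iyd recovers iodide, and neither was in the interferon lists. Among 12099 genes in muscle, over 14 libraries, they were Pgghg (0.96), Sh2d4a (0.96), Bst2 (0.95), P3h3 (0.94) and Ifitm2 (0.93). Bst2 tethers budding virus particles and Ifitm2 blocks virus entry. P3h3 is a collagen prolyl hydroxylase. All 5 muscle correlations were 0.836 or more without the 2 libraries farthest from the median.

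The rest of the pathway was read from 154 other genes matched to lists of interferons, receptors, sensors, regulators and induced genes. Their counts at an unadjusted p under 0.05 or by DESeq2 are given below without the share of all genes. The interferons themselves were not measurable. Of 11 matched, 9 had no read in any library of either tissue, Ifng had 12 reads over all livers and 1 over all muscles, and Ifnz had 6 and 4. Receptor and signalling genes were present in liver. Irf9 averaged 27.5 ± 3.71 CPM in restricted livers and 31.2 ± 5.28 CPM in control livers (SD, n = 12 and 3). Its log2 fold change was -0.11 ± 0.12 (adjusted p = 0.770). The receptor chain Ifnar1 averaged 36.5 ± 6.83 CPM in restricted livers and 39.2 ± 6.32 CPM in control livers.

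In soy against control livers 2 of 134 pathway genes tested (1.49%) fell by edgeR and 0 rose, close to the 1.17% of all genes called, and DESeq2 called 9. Trim14, an adaptor of antiviral signalling at mitochondria, fell by 1.36 ± 0.28 (adjusted p = 0.0312), and Dtx3l, a ubiquitin ligase that works with Parp9, fell by 0.77 ± 0.17 (adjusted p = 0.0424). Both were lost without the 2 soy livers that stood apart (adjusted p = 0.0885 and 0.121) and without any 1 control liver. Over the 12 restricted livers Dtx3l ran from 23.4 to 57.4 CPM, against 66.4 to 67.0 CPM in control livers, and Trim14 from 1.56 to 8.40 CPM, against 10.2 to 12.1 CPM. Neither gene's ranges overlapped, and 1.88% of all genes were lower in every restricted than in any control liver.

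In the mean of the restricted diets against control 0 of 134 pathway genes passed by edgeR in liver, with 16 at an unadjusted p under 0.05 and 4 by DESeq2, and the median of the 134 was -0.11. The 2 of smallest p were Trim14, at -0.91 ± 0.23 (adjusted p = 0.0719), and Cmpk2, the neighbour of Rsad2, at -0.72 ± 0.18 (adjusted p = 0.0835). Cmpk2 averaged 2.39 ± 0.60 CPM in restricted livers and 4.13 ± 0.56 CPM in control livers. Without the 2 soy livers that stood apart 4 of 136 fell, these 2 among them, with adjusted p of 0.0194 and 0.0426. Fish and lard livers against control also called 0 of 134 by edgeR and by DESeq2, with 11 and 12 at an unadjusted p under 0.05. The smallest p were those of Dtx3l (-0.54 ± 0.17, adjusted p = 0.308) and Traf3 (-0.55 ± 0.21, adjusted p = 0.408) in fish livers. In lard livers they were those of Cmpk2 (-0.82 ± 0.23, adjusted p = 0.137) and Tor3a (-0.77 ± 0.22, adjusted p = 0.155).

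Between fats in liver 0 of 134 passed by edgeR in fish against soy, fish against lard and lard against soy livers, with 32, 5 and 21 at an unadjusted p under 0.05 and 2, 0 and 0 by DESeq2. Without the share of all genes at these cuts, the 32 and 21 are not read as an effect of fat on the pathway. The smallest p were those of Oas2 (0.61 ± 0.15, adjusted p = 0.106) and Ciita (1.08 ± 0.33, adjusted p = 0.115) in fish against soy livers. In fish against lard livers Irf5 was at 0.58 ± 0.19 and Ticam1 at -0.43 ± 0.16 (adjusted p = 0.314 and 0.401), and in lard against soy livers Gbp7 was at 0.72 ± 0.21 and Dtx3l at 0.54 ± 0.16 (adjusted p = 0.229 for both).

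In muscle 5 of 121 pathway genes (4.13%) fell in restricted against control libraries by edgeR and 0 rose, where 3.49% of all genes were called and 2.33% were lower. DESeq2 called 10. They were Plac8 (-2.58 ± 0.56, adjusted p = 0.0403), the phosphatase Ptpn6, which dampens cytokine receptors of blood cells (-1.81 ± 0.41, adjusted p = 0.0423), Ly6e (-0.75 ± 0.19, adjusted p = 0.0481) and Ube2l6, the conjugating enzyme for Isg15 (-1.36 ± 0.35, adjusted p = 0.0489). The fifth, Isg20, an exonuclease, was named after its value was seen (-1.57 ± 0.41, adjusted p = 0.0496). None held without the control muscles of mice 1071 and 1120, where adjusted p ran from 0.594 to 0.936. Plac8 ranged from 0.223 to 1.55 CPM in restricted muscles and from 0.939 to 11.8 CPM in control muscles. The soy, fish and lard diets against control each called 0 of 121 by edgeR in muscle, with 12, 21 and 19 at an unadjusted p under 0.05 and 0, 2 and 5 by DESeq2. The 3 comparisons of fat source called 0 by both tools, with 1 to 4 at an unadjusted p under 0.05. The test of the difference between tissues called 2 of 135, Oas3 (3.16 ± 0.72, adjusted p = 0.0412) and Plac8 (2.76 ± 0.66, adjusted p = 0.0499), and 0 without the 4 libraries that stood apart, without the filter on low counts or with the animal as a block.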

How the data were processed

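Total exon read counts per gene and RPKM values were deposited by the authors for 29 libraries (TruSeq, Trizol RNA per the labels' protocols); the submitters' processing notes name FastQC and GRCm38, and no source used here names the aligner or counter. The RPKM columns, so named per the file headers, matched exon reads scaled by exon length and by total gene reads of the library to a relative difference of 2.32e-07. Per the series text a control liver and a fish muscle were discarded by the authors for clustering and RNA quality. Values repeated between the 8 tables were checked in 116 columns and 0 differed.

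Counts of each tissue's 4 diets were fitted together in edgeR 4.0.16 (R 4.3.3; TMM factors, filterByExpr with a minimum count of 10, quasi-likelihood test, Benjamini-Hochberg over all genes, threshold 0.05). Restricted against control compares the mean of the 3 restricted diets with control. The script was tested on simulated data. Fold changes ± SE are log2. The SE was taken from the test, as the absolute log2 fold change divided by the square root of its F value. DESeq2 1.42.0, other scaling, filters, unique reads, blocks and libraries left out were alternatives. Counts of members or pathway genes at an unadjusted p under 0.05 or by DESeq2 are given without the share of all genes. They are not read as an excess. Mouse numbers in the labels pair liver and muscle, and the animal block rests on that. Named genes are all 9 members, up to 4 pathway genes past the threshold per comparison by smallest p (otherwise the 2 of smallest p), and 5 most alike genes per tissue. The members, lists and the libraries called apart were chosen with earlier results of these data known. Promoters are RefSeq's (GRCm38.p6).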

Additional observations from a re-analysis of the deposited data

Results flagged for a closer look

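Of 45 groups of 4 libraries, 5 held a library whose gap to the others exceeded the 95% limit for that group size. Chance gives about 1 in 20, or 2.25, if groups are independent. These groups share libraries between members that move together, so the 5 are not read as an excess. All 5 came from soy liver 1073 or control muscle 1120. In soy livers, mouse 1073 stood apart for Isg15 (17.0 CPM, against 2.84 to 3.49 CPM in the other 3), Ifit3 (22.0 CPM, against 5.15 to 7.44 CPM) and Ifi44 (8.06 CPM, against 1.81 to 2.31 CPM). This library is also among those with few reads outside exons, while soy liver 1159, which shares that trait, was below the liver mean for all 9 genes; the cause was not tested. Control muscle 1120 stood apart for Rsad2 (8.98 CPM, against 3.47 to 3.90 CPM) and Oasl2 (4.81 CPM, against 2.91 to 2.99 CPM). It also held the most neutrophil markers, 1249 CPM.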

How the results depend on the processing

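Of 333 counts of members past the threshold recomputed under an alternative, 12 differed. In soy against control livers the count of 1 became 2 by the DESeq2 Wald test, 0 in a fit of these diets alone, 0 without the 2 libraries that stand apart and 0 to 1 on leaving out 1 library. In lard against control livers the count of 0 became 1 by DESeq2. In restricted against control livers the count of 1 became 0 with the library number as a replicate block (Rsad2 adjusted p = 0.0587) and 0 to 1 on leaving out 1 library. Leaving out 1 library gave 0 to 1 in fish against soy livers and in restricted against control muscles. The library numbers were not shown to pair the samples within a tissue, and the liver and muscle of a mouse carry the same number. Same-numbered libraries of a tissue had a median correlation of deviations of -0.02 in liver (-0.16 to 0.16) and -0.05 in muscle (-0.29 to 0.25). Such a median cannot exclude an effect of the library number on single genes. The block changed no count but that of restricted against control livers. For restricted against control, no fit of the compared diets alone exists, since all diets enter.

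Among 931 recomputations of 43 single fold changes, 16 changed sign. Without the libraries that stand apart these were Isg15 (-0.31) in liver, Rsad2 (0.021), Ifit2 (-0.19), Ifit3 (0.034), Isg15 (0.18), Irf7 (0.24) and Oasl2 (0.0078) in muscle, and Isg15 in the difference between tissues (-0.49). On leaving out 1 library, restricted against control ran from -0.44 to 0.068 for Ifit3, -0.27 to 0.22 for Isg15 and -0.26 to 0.015 for Usp18 in liver, and from -0.086 to 0.25 for Ifit2 and -0.26 to 0.014 for Usp18 in muscle; Ifit2 in lard against control livers ran from -0.46 to 0.010. The causes were not tested. At the depth of these libraries Ifi44 (6 to 17 reads) and Isg15 (7 to 68 reads) in muscle are the least precise.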
